A study of Mus musculus with 18 samples.

Results

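Hedgehog and bone morphogenetic protein (BMP) signals of the gut wall are described here through 9 genes: Ihh, Shh, Ptch1, Gli1, Hhip, Bmp2, Bmp4, Foxf1 and Foxl1. They were picked by symbol, with earlier results of these data known, among 18193 genes that had at least 1 probe set annotated with a single symbol. The 9 genes had 16 such probe sets (short-oligonucleotide sets that each measure a transcript), and the one with the highest 18-array mean stood for its gene. The tissue was ileum, where the small intestine ends, of C57BL/6 mice, an inbred strain, and each piece held every layer of the wall. Mice were taken at postnatal days 4, 7, 9 and 11, called here before weaning (12 arrays), and at days 24 and 32, called after weaning (6 arrays), with 3 individual mice at each of the 6 ages. The labels speak of a course from before to after weaning, but the assignment of the ages to the 2 stages rests on the usual weaning age of laboratory mice. No treatment or genotype other than the strain was given, and litter and sex were not labelled. Each array measured the RNA of 1 mouse on an Affymetrix GeneChip, so p-values measure the spread between mice; 1 number in the sample titles occurs both at day 7 and at day 9, and what it stands for is not stated.

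Some array controls followed the stages. The added hybridization controls were brighter on 10 arrays, 4 before and all 6 after weaning, and dimmer on 8, all before weaning. The added poly-A controls had a log2 level of 4.25 ± 0.29 before (SD, n = 12) and 5.92 ± 0.52 after weaning (SD, n = 6), and the 18S ribosomal RNA probe sets 6.15 ± 0.89 and 9.04 ± 1.62; their part in the results was not tested. The gap between 3′ and 5′ probe sets of the control transcripts was 0.51 ± 0.18 before and 0.49 ± 0.35 after weaning. Low Xist, the pattern of males, was seen on 3 of 12 arrays before and 5 of 6 after.

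Hedgehog proteins are secreted ligands. In the gut they are made by the epithelium, which lines the lumen, and they act on the mesenchyme below it, the tissue that holds fibroblasts, smooth muscle and the sheath of cells under the epithelium. There the ligand binds the receptor Ptch1, which frees the membrane protein Smo, and GLI transcription factors switch on target genes that include Ptch1, Gli1 and Hhip themselves. The forkhead factors Foxf1 and Foxl1 and the ligand Bmp4 are mesenchymal genes that respond to hedgehog signal, and BMP ligands in turn act on epithelium and mesenchyme through receptor kinases and SMAD proteins to restrain crypt growth and favour differentiation. Villus epithelium is also a known source of Bmp2.

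After weaning Ihh and Bmp2 were higher than before it, while the genes that hedgehog signal is known to induce were lower, apart from Foxl1. The epithelial ligand Ihh was 1.58-fold higher after weaning and Bmp2 1.96-fold higher. The hedgehog receptor and target Ptch1 was 3.22-fold lower, the target and decoy receptor Hhip 3.97-fold lower, Gli1 1.89-fold lower, Foxf1 2.56-fold lower and Bmp4 2.10-fold lower. Shh, the second epithelial ligand, was 1.39-fold lower at a level close to background, and Foxl1 was close to background at every age. These folds come from limma, a linear model fitted across all 18193 genes with Benjamini-Hochberg adjustment, and a gene is called where the adjusted p is below 0.05. In that fit 8 of the 9 genes were called, 2 higher and 6 lower. Over all genes 56.3% were called, 28.8% higher and 27.5% lower. The median log2 difference of the 9 genes was -0.92 and that of all genes 0.04. For Gli1 the mean level was already lower at day 11 (4.85) than at day 7 (5.88). Its step from day 11 to day 24 was not called (limma adjusted p = 0.201). Since each piece of wall is a mixture of cells, fewer cells of a type and less RNA per cell cannot be told apart.

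**Figure D1:**
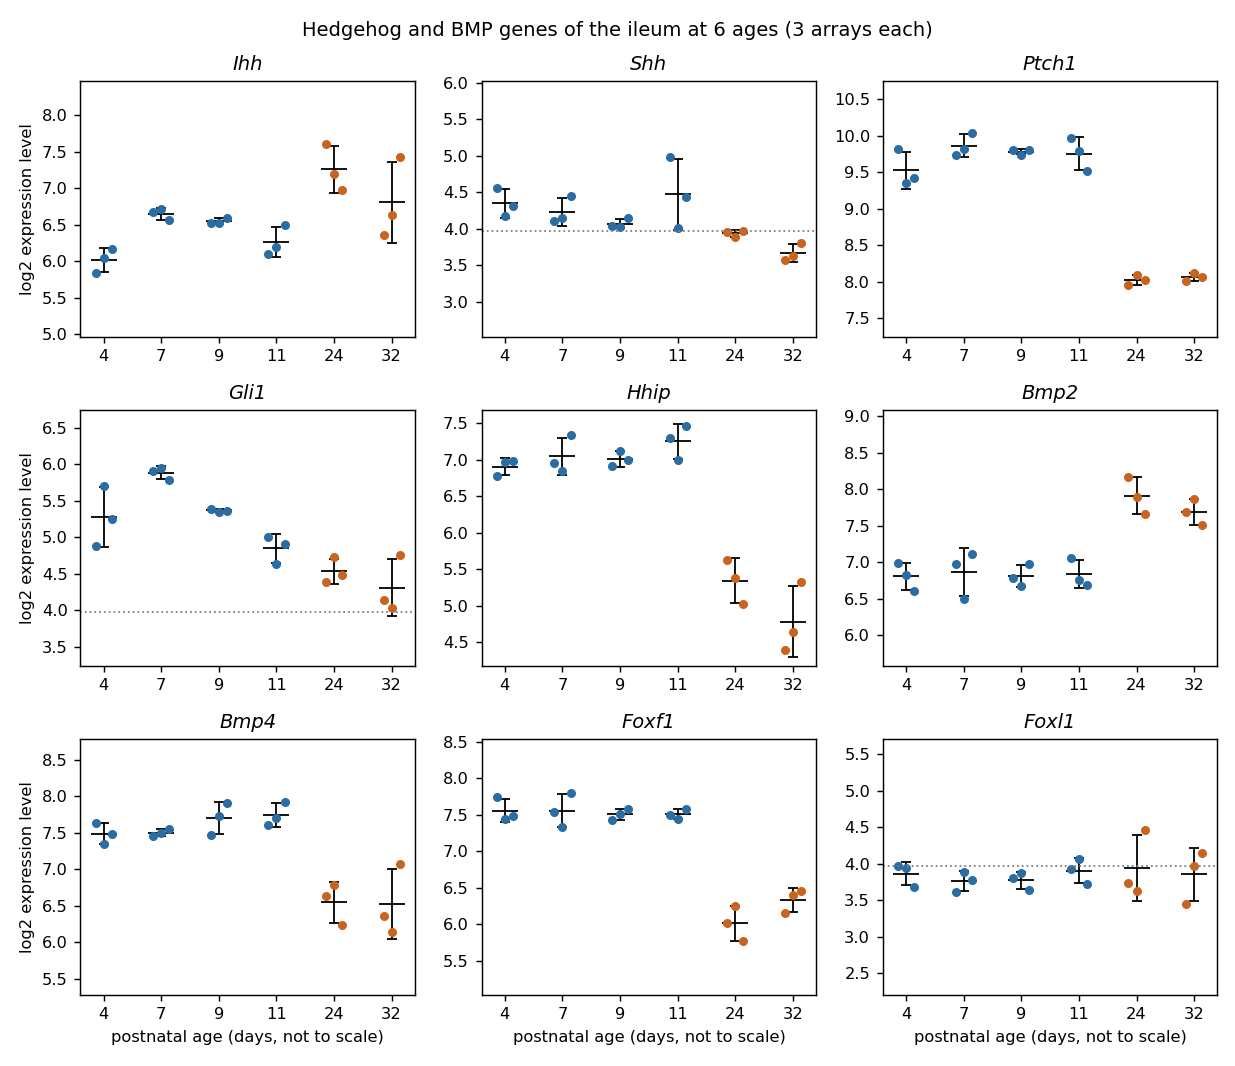
Log2 expression level of the 9 genes (one panel each) at 6 postnatal ages in days, not to scale; points are single arrays (blue before weaning, orange after weaning), the horizontal bar is the mean of 3 arrays and the whiskers are 1 SD. The dotted line marks the highest array median, log2 3.97; Ptch1, Hhip, Bmp4 and Foxf1 drop between day 11 and day 24, Bmp2 and Ihh step up, and Foxl1 lies near the line at every age.

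Promoter sequence was at hand in the RefSeq-derived table (build GRCm38.p6) for 4 of the 9 genes: the ligand Ihh, which rose, and Ptch1, Hhip and Bmp4, which fell together. They are shown because GLI factors act at sites in promoters and enhancers. All 4 genes lie on the minus strand, and each run gives the 250 bases before the annotated start, 5′ to 3′, in lower case. Capitals mark the single match to any motif searched.
Ihh (chr1:74951673-74951922): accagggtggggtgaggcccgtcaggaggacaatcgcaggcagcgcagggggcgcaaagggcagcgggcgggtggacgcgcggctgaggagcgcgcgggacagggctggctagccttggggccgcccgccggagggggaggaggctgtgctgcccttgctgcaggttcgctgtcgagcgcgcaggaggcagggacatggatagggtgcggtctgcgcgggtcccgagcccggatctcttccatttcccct
Ptch1 (chr13:63565736-63565985): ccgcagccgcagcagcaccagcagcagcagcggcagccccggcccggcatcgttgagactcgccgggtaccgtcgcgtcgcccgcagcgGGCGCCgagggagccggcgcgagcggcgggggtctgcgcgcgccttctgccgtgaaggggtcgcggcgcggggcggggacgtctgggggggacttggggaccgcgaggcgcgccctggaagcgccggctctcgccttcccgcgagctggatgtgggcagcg
Hhip (chr8:80058009-80058258): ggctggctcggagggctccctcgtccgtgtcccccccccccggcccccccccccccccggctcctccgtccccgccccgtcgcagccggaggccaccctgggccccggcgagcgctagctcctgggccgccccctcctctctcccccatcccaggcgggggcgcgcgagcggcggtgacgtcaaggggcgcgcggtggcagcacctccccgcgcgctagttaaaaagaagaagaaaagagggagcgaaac
Bmp4 (chr14:46390670-46390919): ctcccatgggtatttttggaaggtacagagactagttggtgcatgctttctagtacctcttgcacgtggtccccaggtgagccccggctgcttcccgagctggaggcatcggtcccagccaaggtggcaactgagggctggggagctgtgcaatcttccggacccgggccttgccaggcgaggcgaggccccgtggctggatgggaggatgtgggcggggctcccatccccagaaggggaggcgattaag
The motifs were searched on both strands over these 250 bases in 32851 promoters. The GLI motif GACCACCCA was in 0 of the 4 and in 0.225% of all promoters, and its looser form GACCNCCCA, which contains it, in 0 of the 4 and 0.868%. The GC-rich motif GGCGCC, which is bound by SMAD proteins of the BMP branch and reads alike on both strands, was in 1 of the 4 and in 9.59% of all promoters. That match lies in the Ptch1 promoter, at positions -161 to -156 from the start. The forkhead motif TGTTTAC was in 0 of the 4 and in 3.17% of all promoters. All 4 promoters were rich in G and C, at 72.0% for Ihh, 78.4% for Ptch1, 76.0% for Hhip and 63.2% for Bmp4, beside a median of 52.4% over all promoters. The Ptch1 promoter held 41 CpG pairs, Hhip 28, Ihh 24 and Bmp4 11, beside a median of 6. A match, or the lack of one, describes these windows only. The starts used for Ptch1 and Hhip lie inside the annotated span of the gene.

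Of the ligands, Ihh (GRCm38.p6 chr1:74945315-74951672) is the main hedgehog protein of differentiated intestinal epithelium. Over the 12 mice before weaning the log2 levels were 5.83, 6.04 and 6.16 at day 4, 6.67, 6.72 and 6.56 at day 7, 6.53, 6.52 and 6.59 at day 9, and 6.10, 6.19 and 6.50 at day 11. Levels after weaning were 7.60, 7.19 and 6.98 at day 24 and 6.35, 6.63 and 7.43 at day 32. All 3 mice of day 24 lay above every mouse before weaning, while 2 of the 3 mice of day 32 lay within the range seen before weaning. In order, the age means were 7.26 at day 24, 6.81 at day 32, 6.65 at day 7, 6.55 at day 9, 6.26 at day 11 and 6.01 at day 4, and the only neighbours whose ranges did not overlap were days 9 and 11. The difference after minus before weaning was 0.66 ± 0.13 on the log2 scale (SE, 6 against 12 arrays; limma adjusted p = 0.000178). Between day 11 and day 24 Ihh rose by 0.99 ± 0.21 (SE, 3 against 3 arrays; limma adjusted p = 0.000713), a 1.99-fold step.

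Shh (chr5:28456840-28467101), the ligand known from the crypts and the intervillus epithelium, was measured near the floor of the arrays. The table holds no detection calls, so the median of each array serves as a rough floor; the highest of these medians was 3.97. Its log2 levels before weaning were 4.56, 4.17 and 4.30 at day 4, 4.10, 4.15 and 4.45 at day 7, 4.04, 4.02 and 4.14 at day 9, and 4.97, 4.01 and 4.43 at day 11. In the 6 mice after weaning they were 3.95, 3.89 and 3.97 at day 24 and 3.57, 3.63 and 3.80 at day 32. Every array after weaning lay below every array before weaning and below the highest array median, so that its level there cannot be told from background. The difference was -0.48 ± 0.11 (SE; limma adjusted p = 0.000838). The second probe set of Shh had a mean of 2.67 and a difference of 0.01 ± 0.06 (SE; adjusted p = 0.885 over all probe sets). The step from day 11 to day 24, -0.54 ± 0.17 (SE; limma adjusted p = 0.0199), fell to -0.28 without the first mouse of day 11, with an adjusted p of 0.144 in limma.

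Of the target genes, Ptch1 (chr13:63508328-63573460) encodes the receptor that binds hedgehog ligand and is itself induced by the signal. Before weaning the log2 levels were 9.81, 9.35 and 9.41 at day 4, 9.74, 9.81 and 10.04 at day 7, 9.80, 9.74 and 9.80 at day 9, and 9.96, 9.78 and 9.51 at day 11. After weaning they were 7.96, 8.10 and 8.02 at day 24 and 8.01, 8.12 and 8.06 at day 32. The 2 stages were separated by a gap wider than the whole range of either, and the 6 arrays after weaning spread over an SD of 0.06. The difference was -1.69 ± 0.08 (SE; limma adjusted p = 1.34e-12). The step from day 11 to day 24 was -1.73 ± 0.13 (SE; limma adjusted p = 4.41e-09), against 0.03 ± 0.13 (SE) from day 24 to day 32. By size, the stage difference of Ptch1 ranked 704 of 18193 genes.

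Hhip (chr8:79965850-80058060) encodes a membrane-anchored protein that binds hedgehog ligands and holds them from the receptor. Its log2 levels were 6.77, 6.97 and 6.98 at day 4, 6.95, 6.85 and 7.33 at day 7, 6.91, 7.12 and 7.00 at day 9, and 7.30, 6.99 and 7.47 at day 11. Levels after weaning were 5.63, 5.38 and 5.02 at day 24 and 4.39, 4.63 and 5.32 at day 32. No array after weaning reached the lowest array before it, and the mice after weaning were spread more widely (SD 0.48, n = 6) than those before (SD 0.21, n = 12). The difference was -1.99 ± 0.12 (SE; limma adjusted p = 8.35e-11), rank 515 of 18193 by size. The step from day 11 to day 24 was -1.91 ± 0.20 (SE; limma adjusted p = 4.35e-07). Averaged over the 4 Hhip probe sets the difference was -1.10, since the other 3 gave -0.70, -0.72 and -1.0.

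Gli1 (chr10:127329882-127341579), the transcription factor whose own transcription reports GLI activity, had its high point at day 7 and not at the stage border. Over the 12 mice before weaning the log2 levels were 4.88, 5.70 and 5.24 at day 4, 5.91, 5.95 and 5.79 at day 7, 5.39, 5.35 and 5.36 at day 9, and 5.00, 4.63 and 4.91 at day 11. In the 6 mice after weaning they were 4.39, 4.73 and 4.48 at day 24 and 4.14, 4.03 and 4.76 at day 32. All 18 arrays lay above the highest array median of 3.97, but those after weaning came close to it. Background may therefore limit the size of the fall. The 3 mice of day 7 stood above every other mouse, and the 2 stages overlapped, since the lowest mouse of day 11 lay below 2 of the mice after weaning. The age means were 5.88 at day 7, 5.37 at day 9, 5.28 at day 4, 4.85 at day 11, 4.53 at day 24 and 4.31 at day 32. Only days 7 and 9 are neighbours in that order with ranges that did not overlap. The difference after minus before weaning was -0.92 ± 0.12 (SE; limma adjusted p = 1.42e-06). The step from day 11 to day 24 was -0.31 ± 0.19 (SE; limma adjusted p = 0.201), and the 3 mice of day 11 already lay below those of day 7. A limma F test over the 4 ages before weaning gave Gli1 an adjusted p of 0.0533, just short of the threshold; 0 of the 9 genes and 0.61% of all genes were called in it, and at an unadjusted p below 0.05 it passed Gli1 and Ihh.

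Foxf1 (chr8:121084386-121088154) is a forkhead transcription factor of gut mesenchyme that hedgehog signal induces. Before weaning the log2 levels were 7.74, 7.44 and 7.48 at day 4, 7.54, 7.33 and 7.80 at day 7, 7.43, 7.51 and 7.57 at day 9, and 7.50, 7.44 and 7.57 at day 11. After weaning they were 6.02, 6.25 and 5.77 at day 24 and 6.15, 6.39 and 6.46 at day 32. The 4 age means before weaning lay between 7.50 and 7.56, and every array after weaning was below every array before it. The difference was -1.36 ± 0.08 (SE; limma adjusted p = 7.49e-11), and its dimmer second probe set gave -0.46 ± 0.15 (SE; adjusted p = 0.0173 over all probe sets). Its neighbour on the chromosome, Foxl1 (chr8:121127685-121130644), marks the cell sheath under the epithelium. Its arrays ran from 3.62 to 4.06 before weaning and from 3.45 to 4.46 after, and 3 of 18 lay above the highest array median. The Foxl1 difference was 0.07 ± 0.12 (SE; limma adjusted p = 0.616), and at this level a fall could not be told from background.

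Of the BMP ligands, Bmp4 (chr14:46383525-46390669) is made by the mesenchyme. Its log2 levels were 7.63, 7.34 and 7.49 at day 4, 7.46, 7.49 and 7.55 at day 7, 7.47, 7.73 and 7.91 at day 9, and 7.60, 7.71 and 7.92 at day 11. Levels after weaning were 6.63, 6.78 and 6.24 at day 24 and 6.36, 6.14 and 7.07 at day 32. The stages did not overlap, and the third mouse of day 32 stood above the other 5 mice after weaning. The difference was -1.07 ± 0.12 (SE; limma adjusted p = 2.16e-07).

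Bmp2 (chr2:133552159-133562896) moved the opposite way. Over the 12 mice before weaning the log2 levels were 6.99, 6.82 and 6.61 at day 4, 6.98, 6.50 and 7.12 at day 7, 6.79, 6.67 and 6.98 at day 9, and 7.05, 6.76 and 6.69 at day 11. In the 6 mice after weaning they were 8.17, 7.90 and 7.67 at day 24 and 7.68, 7.87 and 7.51 at day 32. All 6 arrays after weaning lay above all 12 before it, and the 4 age means before weaning differed by less than the SD of any one of them. The difference was 0.97 ± 0.10 (SE; limma adjusted p = 1.48e-07), and the step from day 11 to day 24 was 1.08 ± 0.17 (SE; limma adjusted p = 4.06e-05). In all, 6 of the 9 genes had arrays that did not overlap between the stages, as had 22.6% of all genes.

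**Figure D2:**
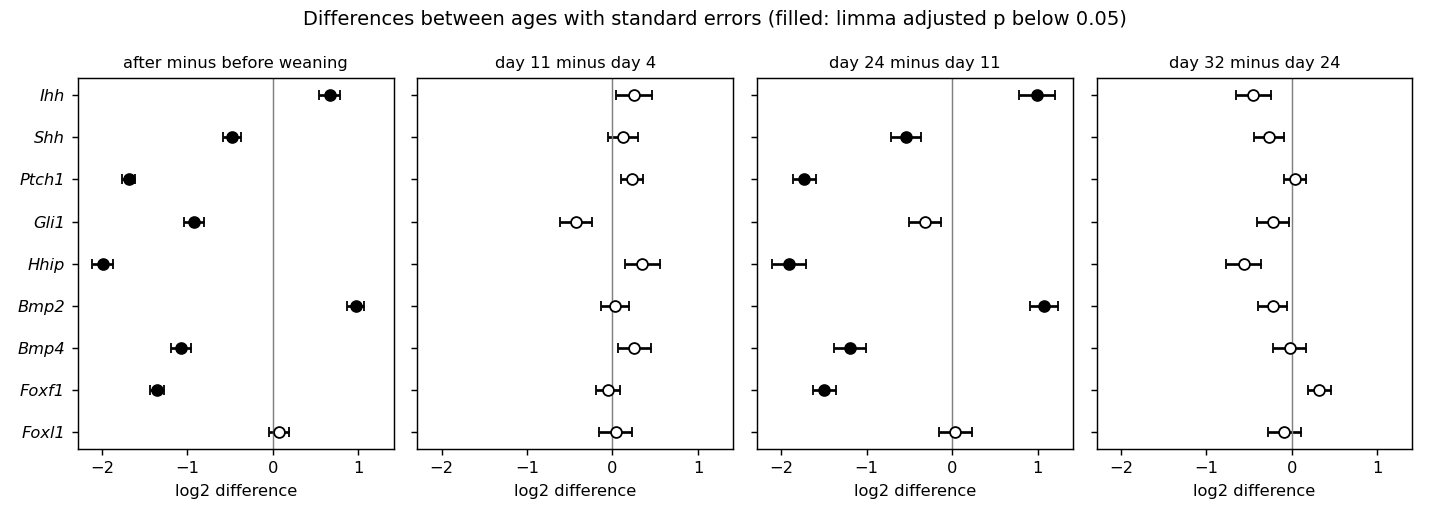
Log2 differences of the 9 genes in 4 comparisons with their standard errors from limma; filled points have an adjusted p below 0.05. The filled points lie in the comparisons that span weaning, 8 in the pooled one and 7 from day 11 to day 24, and none within a stage.

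Within a stage no call was made among the 9 genes. From day 11 to day 24, the 2 sampled ages next to weaning, 7 were called, 2 higher (Ihh and Bmp2) and 5 lower (Shh, Ptch1, Hhip, Bmp4 and Foxf1), beside 39.4% of all genes, 20% higher and 19.4% lower. From day 4 to day 11 limma called 0 of the 9, beside 1.34% of all genes; Gli1 alone had an unadjusted p below 0.05, with a difference of -0.43 ± 0.19 (SE). From day 24 to day 32 limma called 0 of the 9, beside 6.52% of all genes. Ihh (-0.45 ± 0.21), Hhip (-0.56 ± 0.20) and Foxf1 (0.32 ± 0.14) had an unadjusted p below 0.05 there. Without the third mouse of day 32, which had the highest Ihh and Hhip of its age, the differences of Ihh and Hhip became -0.76 and -0.83 with limma adjusted p of 0.0102 and 0.0108. In the single steps before weaning 0 of the 9 were called, beside 0.0275% of all genes from day 4 to day 7, 0.033% from day 7 to day 9 and 0.011% from day 9 to day 11. At an unadjusted p below 0.05 these steps held Ihh, Ptch1 and Gli1 from day 4 to day 7, Gli1 from day 7 to day 9, and Shh and Gli1 from day 9 to day 11. A test over all 6 ages (limma F test) called 8 of the 9, Foxl1 being the exception, beside 46.9% of all genes.

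The 10 arrays with brighter hybridization controls were 4 before and 6 after weaning. Within them the differences after minus before weaning were 0.83 for Ihh, -1.82 for Ptch1, -2.10 for Hhip and -0.94 for Gli1. Those of Foxf1, Bmp4 and Bmp2 were -1.46, -1.01 and 0.77. For Shh the difference was -0.80, further from 0 than over all arrays. Even within these 10 arrays the control level did not overlap between the stages, with 9.62 the highest before and 9.65 the lowest after weaning. Stage and control level therefore cannot be told apart by this subset. With the Xist level as a covariate 8 of the 9 genes were called again, with Gli1 at -0.77. Over all genes 10247, or 56.3%, were called without it. Over the alternatives apart from those leaving out 1 array, 6292 to 10507 were called. The lowest came from the 8630 genes reaching log2 6 on 3 arrays.

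**Figure D3:**
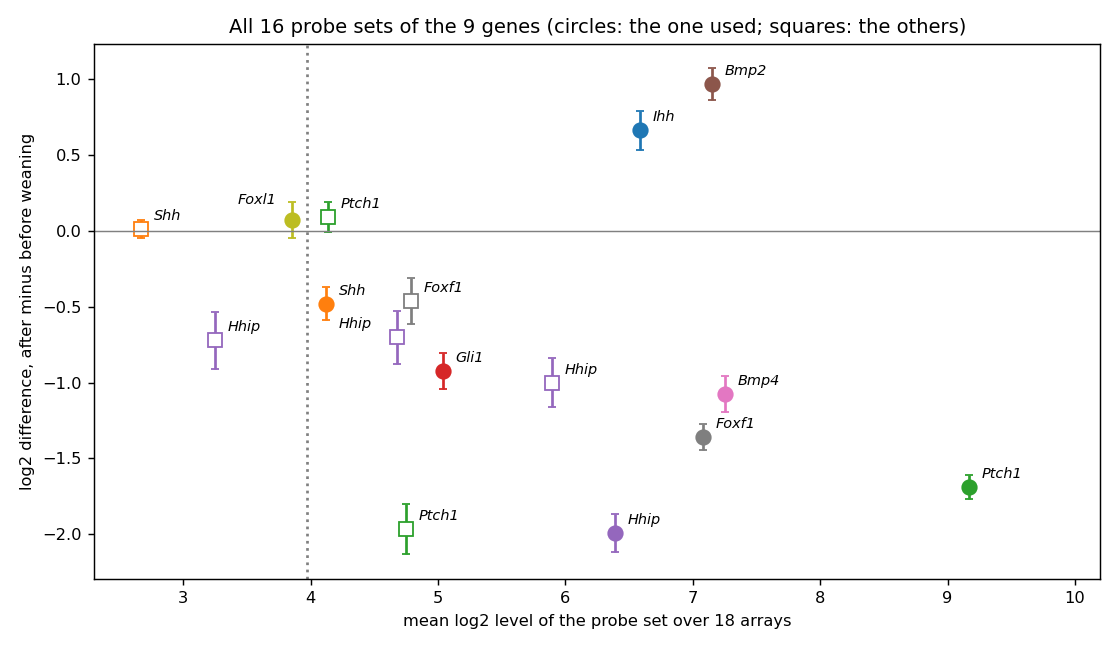
Log2 difference after minus before weaning (vertical, with SE) against the mean log2 level over 18 arrays (horizontal) for all 16 probe sets of the 9 genes. Filled circles are the probe sets used, open squares the others, and the dotted line is the highest array median; all Hhip probe sets lie below 0, and 1 of the 3 Ptch1 probe sets lies near 0 at a level of 4.14.

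Probe sets of the same gene did not always give the same size. The second Ptch1 probe set gave -1.97 ± 0.17 (SE; adjusted p = 2.70e-08 over all probe sets). The third, with a mean level of 4.14, gave 0.09 ± 0.10 (SE, adjusted p = 0.467). From day 11 to day 24 these 2 gave -1.90 and 0.04 (limma adjusted p = 3.65e-05 and 0.890 over all probe sets). The further Hhip probe sets gave -0.65, -0.63 and -0.91 in that step (limma adjusted p = 0.0921, 0.131 and 0.0135). The second probe set of Foxf1 gave -0.62 and that of Shh 0.07 (limma adjusted p = 0.0641 and 0.614).

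Marker genes of several tissues differed between the stages, where 28.8% of all genes were called higher and 27.5% lower. Of 12 fibroblast and matrix markers 10 were lower after weaning and 1 higher, with a median log2 difference of -0.89. Elastin (Eln) fell by 1.72 and the collagen gene Col5a1 by 1.26. The mean level of the list ran from 9.13 to 9.63 over the arrays before weaning and from 8.35 to 8.87 after. Each gene was then set against that mean on the same array, an alternative added after the data were seen. Such a subtraction shifts the stage difference of every gene by the same amount, also for the other lists below. The values thus compare the size of a gene's change with that of the list, and do not correct for cell content. Ptch1 was lower after weaning by -0.87 ± 0.10 (SE, limma adjusted p = 4.03e-07) on this scale. Hhip was lower by -1.18 ± 0.10, Foxf1 by -0.54 ± 0.09 and Bmp4 by -0.26 ± 0.10, with limma adjusted p of 4.75e-09, 2.72e-05 and 0.0409. Gli1 was not called on that scale, at -0.11 ± 0.09 (SE; limma adjusted p = 0.309). Shh turned direction on it and was called higher, at 0.33 ± 0.11 (SE; limma adjusted p = 0.0140), and Foxl1 was called higher at 0.89 ± 0.12 (SE; limma adjusted p = 3.21e-06). Both genes lie near the floor of the arrays, where subtracting a list mean that fell raises the difference by itself. Ihh and Bmp2 were higher by 1.48 and 1.78 on that scale.

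Of 12 smooth muscle markers measured, 4 were higher and 2 lower, with a median of 0.04, beside 0.04 for all genes. Myocardin (Myocd), the coactivator of smooth muscle genes, fell by 2.02, and the channel subunit Kcnmb1 rose by 0.68. The mean level of the list ran from 8.78 to 9.15 before and from 8.74 to 9.12 after weaning. Relative to it 8 of the 9 genes were called in the same directions as without it, with Ptch1 at -1.68, Gli1 at -0.92 and Shh at -0.47, and Foxl1 was not called. Epithelial markers went up, with 9 of 12 higher and 3 lower, a median of 0.64, and list means from 10.18 to 10.31 before and from 10.81 to 11.13 after. The keratin genes Krt20 and Krt19 rose by 4.36 and 1.70. Relative to the epithelial list neither Ihh (-0.11 ± 0.12 SE, limma adjusted p = 0.449) nor Bmp2 (0.20 ± 0.11 SE, limma adjusted p = 0.147) was called. Foxl1 was called lower (-0.70 ± 0.11 SE, limma adjusted p = 2.65e-05), but it lies near background, so this value mainly repeats the rise of the list. The mean of the list takes in Krt20, whose rise was far above the list median, and the fit was not run without Krt20. The part of cell mixture in these results was not tested further.

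Other lists of cell types moved too. Of 8 endothelial markers 7 were lower (median -1.05; Cdh5 -1.70, Pecam1 -1.63), Cdh5 ending at 3.69, below the highest array median. Of 8 enteric neuron and glia markers 5 were lower (median -0.75; Uchl1 -1.39, Ret -1.32). Of 5 adipocyte markers 4 were higher (median 3.13; Adipoq 5.44, Car3 5.31), and the list mean ran from 4.43 to 6.61 before and from 7.08 to 8.47 after. Of 8 leukocyte markers 5 were higher and 2 lower (median 0.51), with Igha at 7.29 and Jchain at 7.05. The 2 lower were Csf1r and Cd68, with mean levels of 11.43 and 5.46 at day 11 and 8.35 and 4.66 at day 24. Of 6 genes listed as ileal identity markers 4 were higher after weaning, among them the bile acid genes Fabp6 (6.04) and Slc10a2 (5.34). The other 2 were lower, Apoa4 (-3.48) and Fgf15 (-1.46). Fabp6 stood at 8.30 at day 4 and 5.77 at day 11. The list does not by itself show the site of the pieces before weaning. Before weaning Jchain (mean level 2.43) and Slc10a2 (2.15) lay below the highest array median. The sizes of these 2 differences are therefore set by a level that cannot be told from background. Adipoq lay below that median at days 4, 7 and 9 (2.56, 2.54 and 2.65) but at 4.70 at day 11. Its stage difference thus rests partly on such levels. From day 4 to day 11 Adipoq rose by 2.14 ± 0.42 (SE, limma adjusted p = 0.0137), a call lost in 5 of 32 alternatives. Car3 rose by 5.06 ± 0.44 over the same days (SE, limma adjusted p = 5.38e-06), from a level of 3.51 at day 4.

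**Figure D4:**
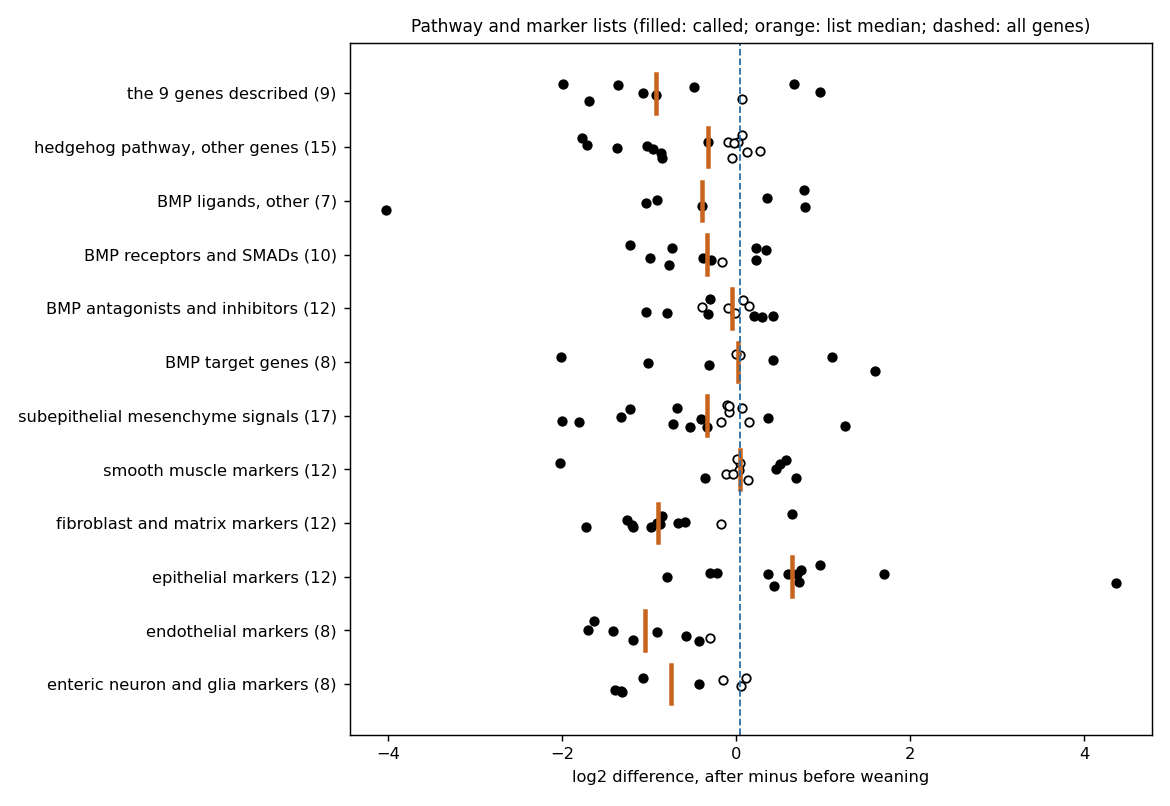
Log2 difference after minus before weaning of every measured gene in each list, with the number of genes in brackets; filled points have a limma adjusted p below 0.05, the orange bar is the list median and the dashed line the median of all genes, 0.04. The fibroblast and endothelial medians lie below 0 and the epithelial median above it, while the smooth muscle median lies on the dashed line.

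In the stage comparison the rest of the hedgehog pathway was lower or not called. Of 15 other measured genes 0 were higher and 8 lower after weaning, with a median log2 difference of -0.33. Over all genes 56.3% were called there, 28.8% higher and 27.5% lower. Gas1, a co-receptor that helps ligand bind Ptch1, went from a level of 9.57 to 7.80, a difference of -1.77 ± 0.09 (SE; limma adjusted p = 6.69e-12). Cdon, another co-receptor, differed by -1.02 and Gli3, the GLI factor that acts mainly as a repressor, by -1.37. Lrp2, an endocytic receptor known to bind hedgehog ligand, differed by -1.71 and ended below the highest array median. The other 4 called were Sufu, Foxf2, Gli2 and Smo. From day 4 to day 11 Lrp2 had already fallen by 1.19 ± 0.19 (SE; limma adjusted p = 0.00406), the one gene of the list called there, and from day 24 to day 32 Gli2 fell by 0.50 ± 0.11 (SE; limma adjusted p = 0.00783). From day 11 to day 24, 7 were lower and 2 higher, beside 19.4% lower and 20% higher over all genes. Gas1 fell by 1.97 and Gli3 by 1.37.

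The BMP branch held genes called in both directions, as did all genes, of which 28.8% were higher and 27.5% lower. Of 7 other BMP ligands 3 were higher and 4 lower (median -0.39). Bmp7 went from a log2 level of 8.28 to 4.26, a 16.3-fold difference (-4.02 ± 0.14 SE, limma adjusted p = 1.81e-14), larger than that of any of the 9 genes. Its level of 4.03 ± 0.60 at day 32 (SD, n = 3) was close to the highest array median of 3.97. Background may therefore limit the size of this fall. Bmp1, a protease despite its name, fell by 1.04 and Gdf10 by 0.91, while Bmp8a rose by 0.79. From day 24 to day 32 Gdf10 fell by a further 0.57 ± 0.16 (SE; limma adjusted p = 0.0376), a call lost in 7 of 31 alternative fits (adjusted p up to 0.140), among them leaving out the first or second mouse of day 24 or of day 32. Of 10 receptors and SMADs 3 were higher and 6 lower (median -0.33). The receptor genes Acvr2b, Bmpr2 and Acvr1 fell by 1.21, 0.77 and 0.74, and the signal transducer Smad5 by 0.99. From day 24 to day 32 Bmpr2 rose by 0.46 ± 0.10 (SE; limma adjusted p = 0.0105), a call lost in 4 of 31 alternatives (adjusted p up to 0.671), among them leaving out the second mouse of day 32.

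BMP antagonists and inhibitors were lower in 4 and higher in 3 of 12 (median -0.05). The pseudoreceptor Bambi fell by 1.03, Bmper by 0.79 at a level under the highest array median, and Sostdc1 by 0.32 at a level lower still, while the inhibitory SMAD gene Smad7 rose by 0.43. From day 24 to day 32 Bambi fell by 0.62 ± 0.15 (SE; limma adjusted p = 0.0154), a call lost in 5 of 31 alternatives (adjusted p up to 0.0909), among them leaving out the third mouse of day 24 or of day 32. BMP target genes were called 3 up and 3 down of 8 (median 0.02). The inhibitors of differentiation Id3 and Id1 rose by 1.59 and 1.10, from log2 levels of 7.43 and 7.70 to 9.02 and 8.80, and Id2 and Id4 fell by 2.01 and 1.01, from 9.90 and 8.33 to 7.89 and 7.31. Id1 had risen before weaning as well, by 0.85 ± 0.14 from day 4 to day 11 (SE; limma adjusted p = 0.00494). Hey1 differed by -0.35 ± 0.10 from day 24 to day 32 (SE; limma adjusted p = 0.0496), a call at the threshold that was lost in 22 of 30 alternatives (adjusted p up to 0.206), 15 of which left out 1 mouse.

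Of 17 genes listed as signals of the mesenchyme under the epithelium 9 were lower and 2 higher after weaning (median -0.34). Over all genes 27.5% were lower and 28.8% higher. The Wnt antagonists Sfrp2 and Sfrp1 fell by 2.00, to a mean of 3.45 that is below the highest array median, and by 1.81, the ligand Wnt5a by 1.32 and the growth factor receptor Pdgfra by 1.22, whereas Edn3, which encodes endothelin 3, rose by 1.25. Wnt5a rose by 0.74 ± 0.16 from day 4 to day 11 (SE; limma adjusted p = 0.0228), fell by 1.87 ± 0.16 from day 11 to day 24 (SE; limma adjusted p = 1.58e-08) and rose by 0.61 ± 0.16 from day 24 to day 32 (SE; limma adjusted p = 0.0254). The call of the first rise was lost in 8 of 32 alternatives (adjusted p up to 0.255), among them leaving out replicate 2 or 3 of day 4 or replicate 1 or 2 of day 11. That of the last rise was lost in 8 of 31 (adjusted p up to 0.579), among them leaving out replicate 1 or 3 of day 24 or replicate 2 or 3 of day 32. Sfrp1 fell by a further 1.11 ± 0.11 from day 24 to day 32 (SE; limma adjusted p = 2.59e-06).

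The mice of a stage allow the question whether a mouse with more Ihh also had more of the target transcripts. It was asked for Ptch1, Gli1 and Hhip in each stage, which makes 6 relations, with two-sided permutation tests (exact for 6 arrays, 1e+05 resamples for 12) and adjustment over the 6. After weaning Ihh and Hhip varied together over the 6 mice, with Pearson's r = 0.979 (exact permutation p = 0.00278, adjusted 0.0167) and Spearman's rho = 0.943 (exact permutation p = 0.0167, adjusted 0.05). Without the 2 mice farthest from the median of Ihh r was 0.932. As deviations from the mean of each age, added after the data were seen, r was 0.987. The exact permutation p was 0.0278, which is the smallest that reordering within the ages can give. Its adjusted value of 0.0833 does not pass the adjustment, and the adjusted 0.05 of rho is not below the threshold. The test over the 6 mice reorders them across the 2 ages. Over the same 6 mice Ihh had r = 0.887 and Hhip r = 0.952 with the mean of the smooth muscle list, 0.675 and 0.776 with the 18S level, and 0.990 and 0.956 with the mean of the other BMP ligands, given as descriptions of 6 arrays. The part of these measures was not tested.

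Before weaning Ihh and Gli1 had r = 0.582 over 12 mice (permutation p = 0.0478, adjusted 0.144) and rho = 0.692 (permutation p = 0.0151, adjusted 0.05). Without the 2 mice farthest from the median of Ihh r was 0.757, and as deviations from age means 0.381 (exact permutation p = 0.469). Among the ages before weaning day 7 was the highest in both genes. Without the second mouse of day 4, which had high Gli1 and low Ihh, r was 0.750 with an adjusted permutation p of 0.0312. Ihh and Ptch1 had r = 0.250 before (permutation p = 0.436, adjusted 0.596) and r = -0.267 after weaning (exact permutation p = 0.596, adjusted 0.596). The corresponding rho were 0.175 (adjusted permutation p = 0.79) and -0.257 (adjusted exact permutation p = 0.79), and r without the 2 farthest mice 0.159 and -0.411. As deviations from age means Ihh and Ptch1 had r = -0.886 and rho = -0.839 before weaning (exact permutation p = 0.0185 and 0.0355, adjusted 0.0833 and 0.106), the opposite sign, which does not pass the adjustment, and r = -0.127 after weaning (exact permutation p = 0.833). Ihh and Hhip before weaning had r = 0.182 (permutation p = 0.570, adjusted 0.596), rho = -0.01 (adjusted permutation p = 0.991) and r = -0.220 without the 2 farthest mice; as deviations r was 0.261 (exact permutation p = 0.566). Ihh and Gli1 after weaning had r = 0.715 (exact permutation p = 0.124, adjusted 0.247), rho = 0.60 (adjusted exact permutation p = 0.483) and r = 0.960 without the 2 farthest mice; as deviations r was 0.645 (exact permutation p = 0.361).

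**Figure D5:**
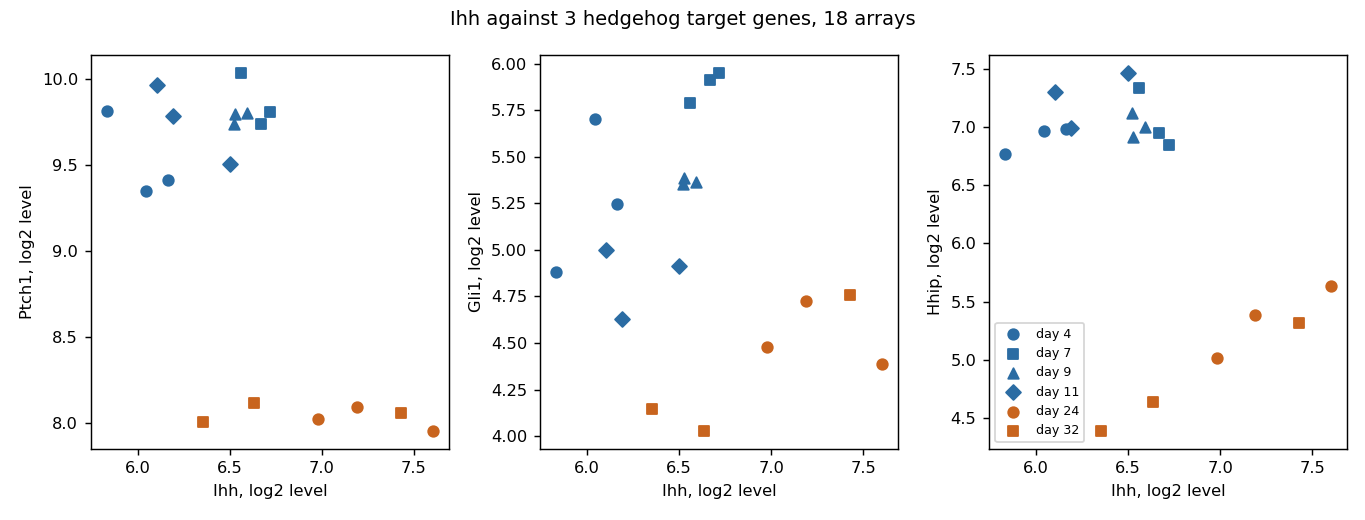
Log2 level of Ptch1, Gli1 and Hhip (vertical) against the log2 level of Ihh (horizontal) on 18 arrays; blue symbols are ages before weaning and orange symbols ages after weaning. After weaning Hhip climbs with Ihh along both ages, while Ptch1 lies between 7.96 and 8.12 whatever the level of Ihh.

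Some genes had patterns very like the members over the 18 arrays, by Pearson's r among 11950 genes with a mean above the highest array median. These r are descriptions, and every one spans the step between the stages. Nearest to Ptch1 were Arrdc4 (0.990), Gas1 (0.989) and Flcn (0.989). Nearest to Foxf1 were Sirt2 (0.988), Mfsd1 (0.985) and Ubtd2 (0.983), and to Hhip Mab21l2 (0.976), Disp2 (0.975) and Ctns (0.975). Bmp4 had Fzd1 (0.956), Als2cl (0.953) and Postn (0.953). Bmp2 had Ntn4 (0.956), Ptprr (0.952) and the peptide transporter gene Slc15a1 (0.952). Gli1 had Zfp821 (0.910), Tmem130 (0.906) and Tro (0.905). Ihh had Cables1 (0.900), Bag4 (0.895) and Gstm1 (0.894), and Shh had Sdc2 (0.926), Sema5a (0.916) and Nelfa (0.910).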

How the data were processed

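The authors made the log2 levels of the deposited table with RMA, per the submitters' processing notes, with version and options not given. It holds 45101 probe sets, 64 of them controls. RMA brings arrays to 1 distribution, so a shift shared by all genes cannot be seen, and the number of arrays limits the precision. The array model is not given in the sources used here. The platform annotation gave 34945 probe sets 1 symbol; 13 control probe sets with a symbol were left out.

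With limma 3.58.1 in R 4.3.3, age as a factor of 6 levels was fitted to 18193 genes (1 probe set each, no filter on dim ones, 12 residual degrees of freedom), with Benjamini-Hochberg adjustment over all genes and a threshold of 0.05; p-values of further probe sets were adjusted over all probe sets. On simulated data with 200 changed genes among 18193, the stage comparison recovered 85% of changes of 0.5 and 100% of changes of 1 (log2). Day 11 against day 4 recovered 32% and 92%. In the data themselves 56.3% of genes were called in the stage comparison, a far larger share than was changed in the simulation. The simulated recovery of that comparison need not hold for the data.

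The 9 genes and all lists were chosen with earlier results of these data known. Named are the 9 genes and, by size in the stage comparison, up to 4 called genes of a pathway list and 2 of a marker list. Elsewhere up to 2 and 1 were named, with the 3 patterns most like each called gene. Sufu, Foxf2, Gli2, Smo, Csf1r, Cd68, Apoa4 and Fgf15 were named to complete a count. Adipoq from day 4 to day 11 was named to describe its level. Some listed genes are not reported here. Within an age the lowest correlation of 2 arrays was 0.983, and 0 pairs were identical. Alternatives were other filters, the mean of probe sets, further scaling, other variance models, array weights, control spike groups, the Xist level and leaving out each array.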

Additional observations from a re-analysis of the deposited data

How the results depend on the processing

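Over 18 alternatives that left out 1 array each and 17 others, 1114 of 1127 differences of the 9 genes kept their direction, where called, and their side of the threshold. The 3 that turned direction with a call on either side were stage differences set against the mean of a marker list: Shh relative to the fibroblast list (0.33), and Ihh (-0.11, no longer called) and Foxl1 (-0.70, called lower there) relative to the epithelial list. The call of Shh from day 11 to day 24 was lost with the mean of its probe sets (-0.23, adjusted p = 0.122), with only the compared ages in the fit (-0.54, 0.0747), with the Xist level as covariate (-0.50, 0.0516), and without day 11 replicate 1 (-0.28, 0.144) or day 24 replicate 2 (-0.51, 0.0562). Of the genes described, the number called from day 24 to day 32 ran from 0 to 2 when 1 array was left out, the 2 being Ihh and Hhip without day 32 replicate 3. Among the pathway genes called within a stage, Lrp2 and Gli2 lost the call in 2 of 31 alternatives each, Id1 in 3 of 32 and Sfrp1 in 0 of 31, none of them by leaving out 1 array. The correlation of Ihh with Gli1 before weaning ran from 0.497 to 0.750. The 8 arrays with dimmer hybridization controls were all before weaning and kept only the third mouse of day 4. No call of the 9 genes is therefore given for them. With probe sets averaged, Hhip from day 11 to day 24 was -1.02 and Shh after minus before weaning -0.23; with the control spike group as a block Shh was -0.73. Restricted to brighter control arrays, Shh from day 11 to day 24 was -1.04.

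Over all genes, 6292 in place of 10247 were called after minus before weaning among genes reaching log2 6 on 3 arrays, 2681 higher and 3611 lower in place of 5248 and 4999. The 244 genes of day 4 to day 11 became 644 with array weights, 397 with the block, 58 with only those ages, 8 and 20 in the brighter and dimmer control groups, 114 without the arrays of widest 3′ to 5′ gap, and 91 to 291 leaving out 1 array. The 1186 of day 24 to day 32 became 333 with only those ages, 301 in the brighter group, 743 without the widest gaps, and 702 to 1313 leaving out 1 array. From day 11 to day 24, 4002 in place of 7161 were called in the brighter group, and the F test called 5426 there and 27 in the dimmer group in place of 8531. The 5, 6 and 2 genes called in the 3 steps before weaning ran from 0 to 30, 2 to 11 and 0 to 83. The cause of these shifts was not tested. No paired analysis was possible because the ages share at most 1 number in their sample titles (days 7 and 9), fewer than a paired fit needs. The correlations after weaning were not tested again without each array in turn; r without the 2 farthest mice, over 4 mice, is given without a test. Shh and Foxl1 lie near background, and Gli1 came close to it after weaning, which limits what these arrays can show of them.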
